A study of Pan troglodytes with 6 samples.

Results

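The genes described here are the cadherins, the protocadherins and the adhesion molecules of synapses and axons, in cerebellum and liver of the chimpanzee (Pan troglodytes). They were chosen by symbol and not by a measured value, though with earlier results of these data known. Taken were the cadherins with a numbered CDH symbol, the protocadherins, contactins, contactin-associated proteins, neurexins and neuroligins. The LRRTM, LRFN, SLITRK and CADM families, NCAM1, NCAM2 and NRCAM were taken too. Of 12584 genes that the array named without ambiguity, 73 belonged to these families, and no 2 of the 73 shared a symbol. A further 6 features that name a family gene together with other genes were left out, among them features of the alpha and beta protocadherin clusters. RNA, extracted with TRIzol, of 3 cerebellum samples and 3 liver samples was hybridised to Affymetrix Human Exon 1.0 ST arrays, whose probes were designed on the human genome. Replicate 1 of each tissue was labelled as a female of 27 years, replicate 2 as a male of 37 years and replicate 3 as a male of 30 years, with no treatment given in the labels. The labels do not say whether a cerebellum and a liver of the same number came from the same animal, and sex, age and animal cannot be told apart with 3 samples per tissue.

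Cadherins are calcium-dependent adhesion proteins that bind cadherins of a neighbouring cell and anchor to actin through catenins. Protocadherins share the extracellular fold and give neurons combinatorial surface identities, while neurexins on the presynaptic side bind neuroligins and LRRTM proteins on the postsynaptic side and secreted cerebellins in the cleft. Contactins, NCAM, NRCAM and CADM proteins belong to the immunoglobulin superfamily and act in axon contact, myelinated fibres and synapse formation. In cerebellum these molecules are known from the contacts of granule cells, Purkinje cells and glia, whereas in liver E-cadherin and N-cadherin join hepatocytes and VE-cadherin joins endothelial cells.

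Levels below are the deposited intensities on a linear scale, which had been quantile normalized, with the 3 arrays of a tissue in the order of replicates 1 to 3. The same distribution on all 6 arrays means that a difference in total signal cannot be seen, and the number of arrays limits the precision. Differences are log2 cerebellum minus liver after a pseudocount of 16.8 was added, so that positive values mean higher in cerebellum, and they understate the change of dim genes. A gene was called when limma's p value, adjusted by Benjamini-Hochberg over all 15143 features, was under 0.05. Probes differ in brightness, so levels are compared between tissues for a gene and not between genes. Nothing in the labels names separate extractions, and the p values measure only the spread between these samples. Arrays of the same tissue correlated across features, with Pearson's r of 0.947 to 0.977 among cerebellum arrays and 0.906 to 0.950 among liver arrays. Arrays of different tissues had r of 0.445 to 0.507. All 6 measured granule cell markers were higher in cerebellum and all 6 measured hepatocyte markers were higher in liver, as the tissue labels say.

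Most of the adhesion genes were higher in cerebellum. Of the 73, 50 were called higher in cerebellum and 7 higher in liver, and 16 were not called. Without cerebellum replicate 3 the number higher in liver was 3. Over all features 26.7% were called higher in cerebellum and 23.9% higher in liver, together 50.6%, against 68.5% and 9.59% of the adhesion genes. With a difference of at least 2-fold as a further criterion, 43 were higher in cerebellum and 5 in liver, where the shares over all features were 17.2% and 15.8%. The 5 toward liver were 3 without cerebellum replicate 3, liver replicate 1 or liver replicate 3. The 3 cerebellum arrays lay entirely above the 3 liver arrays for 52 genes, and the liver arrays entirely above for 6, where 31.0% and 28.5% of all features parted so. The median log2 difference of the 73 genes was 1.49, against 0.04 over all features. In bulk tissue, fewer cells of a type and less RNA per cell cannot be told apart.

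These counts rest on the deposited scale. When arrays were instead scaled to genes of general use (those of the ribosome, the proteasome and the respiratory chain), the median of all features moved to 0.54 and that of the adhesion genes to 1.99, and 76.0% of all called features were higher in cerebellum, against 52.8% on the deposited scale. Then 56 adhesion genes were higher in cerebellum and 3 in liver, namely CDH1, CDH5 and PCDH12. The plot of differences by family shows the split on the deposited scale.

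**Figure D1:**
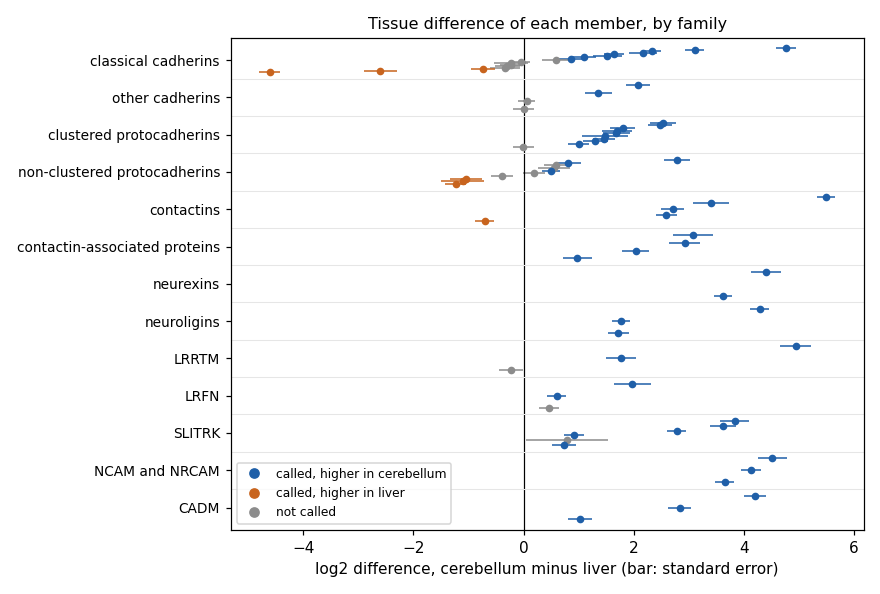
Log2 difference (cerebellum minus liver) of each of the 73 genes, grouped by family, with bars for limma's standard error and 3 arrays per tissue. All called genes lie right of 0 in every family other than the classical cadherins, the non-clustered protocadherins and the contactins. The classical cadherins reach from -4.61 to 4.77.

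Of the 17 classical cadherins 8 were higher in cerebellum (47.1%, against 26.7% of all features), 3 higher in liver (17.6%, against 23.9%) and 6 not called. CDH1, which encodes E-cadherin of epithelial junctions, was at 13.8, 13.4 and 16.2 in cerebellum, against 608, 869 and 786 in liver. All 3 cerebellum arrays were under the pseudocount and all 3 liver arrays far above it, and the gene differed by -4.61 ± 0.19 in log2 (SE; limma, adjusted p = 4.06e-07). Hepatocyte markers, all 6 higher in liver, summed to 66.0 to 153 in cerebellum and 20744 to 24602 in liver. Of 6 bile duct markers 2 were higher in liver, the sums were 609 to 806 in cerebellum and 1401 to 2223 in liver, and 1 marker was at or below 0 in liver. The part of either cell type in the CDH1 difference was not tested. CDH5, VE-cadherin of endothelial junctions, was at 18.9, 33.7 and 15.6 in cerebellum, against 161, 186 and 349 in liver. The tissues did not overlap, liver replicate 3 was the highest, and the log2 difference was -2.61 ± 0.30 (SE; limma, adjusted p = 0.000136). Of 9 measured endothelial markers 7 were higher in liver (77.8%, against 23.9% of all features) and 0 higher in cerebellum. VWF and CLDN5 overlapped between the tissues and were not called, with log2 differences of -0.68 and -0.16 (limma, adjusted p = 0.117 and 0.463). The 9 markers summed to 286 to 490 intensity units on cerebellum arrays and 2299 to 2550 on liver arrays. No marker was at 0 on any array. The part of endothelial cells in the CDH5 difference was not tested.

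CDH2, N-cadherin, which neurons and hepatocytes both express, did not part the tissues. Its levels were 391, 552 and 465 in cerebellum, against 512, 478 and 765 in liver. The ranges overlapped, at a log2 difference of -0.29 ± 0.23 (SE; limma, adjusted p = 0.321), which became 0.21 after alignment on those genes of general use. CDH22, a type II cadherin known from brain and pituitary in rat, was the third gene of this family called toward liver. It was at 415, 277 and 257 in cerebellum, against 462, 586 and 533 in liver. The tissues did not overlap but both gave a clear signal, and the log2 difference of -0.73 (limma, adjusted p = 0.0218) was not called without cerebellum replicate 2 or 3 or without liver replicate 2 (adjusted p from 0.0656 to 0.0945), nor after that alignment (then -0.23; limma adjusted p = 0.464).

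Type II cadherins, the larger subfamily of classical cadherins in the nervous system, gave the largest cerebellum differences of the family. CDH18 was at 950.0, 671 and 822 in cerebellum, against 12.4, 14.1 and 13.8 in liver. Every cerebellum array lay far above every liver array, and the log2 difference was 4.77 ± 0.18 (SE; limma, adjusted p = 3.29e-07). CDH10 was at 207, 221 and 205 in cerebellum, against 6.08, 12.6 and 10.7 in liver, a log2 difference of 3.11. CDH20 was at 139, 145 and 117 in cerebellum, against 14.4, 13.6 and 10.8 in liver, a log2 difference of 2.34. In both genes the 3 cerebellum arrays were close together and the liver arrays lay under the pseudocount, so the size of the fold depends on that constant. CDH11, a cadherin of mesenchymal cells, differed by 2.17, CDH24 by 1.52, CDH9 by 1.10 and CDH7 by 0.87, all called. The call of CDH7 was lost without cerebellum replicate 1 (limma, adjusted p = 0.0509). CDH8 differed by 0.58 (limma, adjusted p = 0.0750), and it was called without cerebellum replicate 2 (adjusted p = 0.0208), whose array gave 27.1 beside 49.5 and 55.0.

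Among the remaining type I cadherins, CDH15, M-cadherin, which is known from muscle and in mouse from cerebellar granule cells, averaged 72.8 ± 15.7 in cerebellum and 11.6 ± 1.27 in liver (SD, n = 3 per tissue here and below), a log2 difference of 1.65 (limma, adjusted p = 0.000112). CDH3, P-cadherin of epithelia, stayed between 14.7 and 29.6 on all 6 arrays and was not called. CDH6, CDH12 and CDH19 were not called either, with log2 differences of -0.23, -0.05 and -0.34. Of the 4 cadherins outside the classical group, CDH23, a component of the tip links of sensory hair cells, and CDH26 were higher in cerebellum. CDH23 was at 105, 181 and 122 in cerebellum, against 18.8, 21.4 and 15.97 in liver, and CDH26 at 144, 68.6 and 93.9 in cerebellum, against 24.5, 32.6 and 27.5 in liver. Neither overlapped between the tissues, and the log2 differences were 2.08 and 1.36 (limma, adjusted p = 7.03e-05 and 0.00177). CDH16, known from kidney, and CDH17, known from intestine, stayed between 8.02 and 17.96 on every array.

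**Figure D2:**
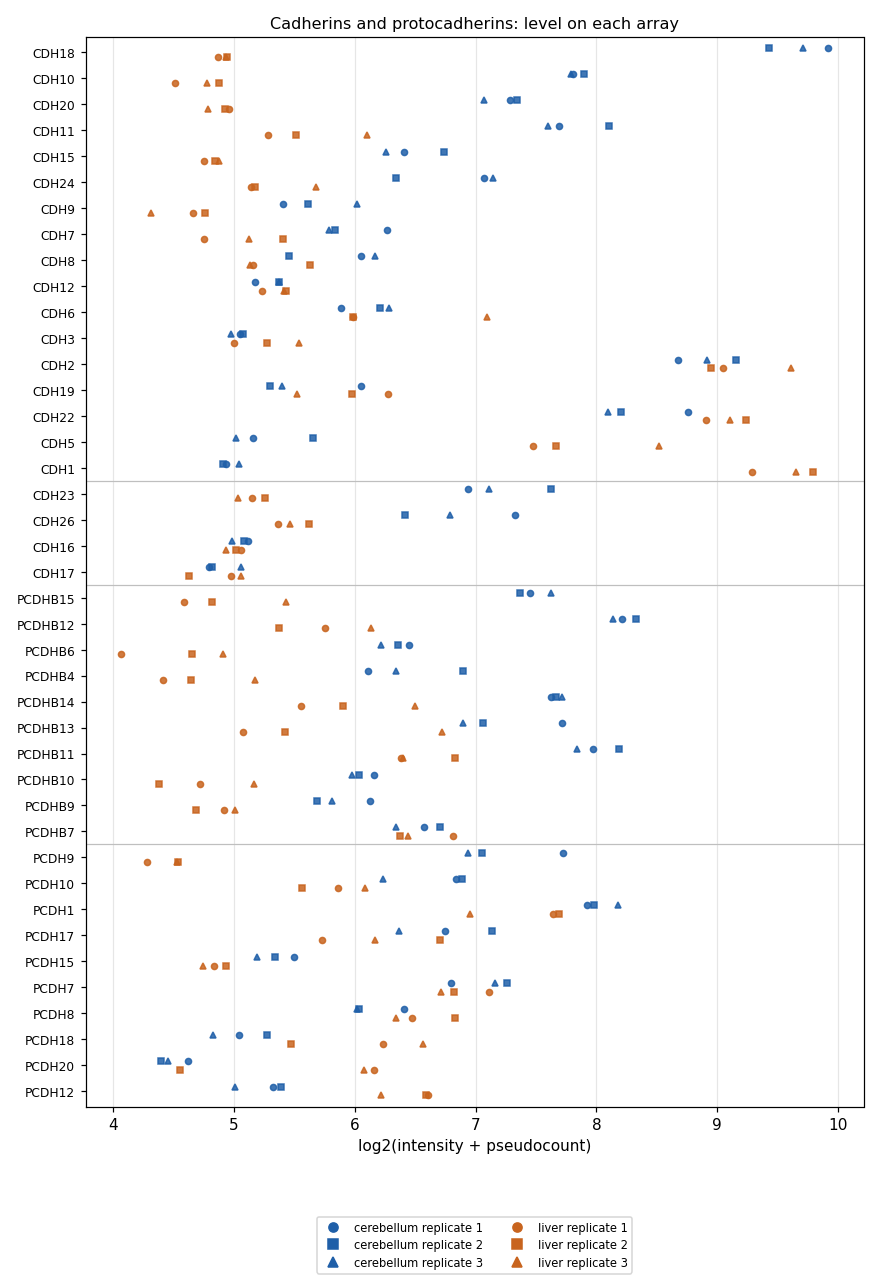
Level of each cadherin and protocadherin on each array, as log2 of intensity plus the pseudocount, with lines between families and symbols for the replicates. Cerebellum points lie right of liver points for most rows, and left of them for CDH1, CDH5, CDH22, PCDH18 and PCDH12. Rows are to be read 1 at a time, since probes differ in brightness.

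The beta protocadherins, which lie side by side in a gene cluster and are each encoded by a single exon, were nearly all higher in cerebellum. Of 10 measured, 9 were called higher (90%, against 26.7% of all features), all by at least 2-fold. In the other direction 0 were called higher in liver, against 23.9% of all features (limma, and 0 also at an unadjusted p under 0.05). PCDHB15 was at 158, 148 and 181 in cerebellum, against 7.34, 11.4 and 26.3 in liver. PCDHB12 was at 279.6, 305 and 265 in cerebellum, against 37.1, 24.7 and 53.6 in liver. The tissues were far apart in both, with log2 differences of 2.53 and 2.47 (limma, adjusted p = 3.90e-05 and 2.84e-05). PCDHB6 was at 70.6, 65.4 and 57.7 in cerebellum, against -2.94, 8.41 and 13.2 in liver, including the only value below 0 among the 73 genes, with a log2 difference of 1.80. The other called differences were 1.70 for PCDHB4, 1.68 for PCDHB14, 1.49 for PCDHB13, 1.46 for PCDHB11, 1.30 for PCDHB10 and 1.01 for PCDHB9.

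PCDHB7 departed from the other beta protocadherins. It was at 78.3, 87.8 and 64.2 in cerebellum, against 95.8, 66.2 and 70.1 in liver, a log2 difference of -0.0039 ± 0.19 (SE; limma, adjusted p = 0.989). The tissues overlapped for this gene. Beta protocadherins are similar in sequence and their features can share signal, so the values of single members of the cluster are uncertain. PCDHB9, PCDHB11, PCDHB12 and PCDHB14 are also named, with other genes, by features that were left out. PCDHB13 lost its call without cerebellum replicate 1, liver replicate 1 or liver replicate 2 (limma, adjusted p from 0.0531 to 0.0656), and without liver replicate 3 its log2 difference was 1.98 (adjusted p = 0.000731).

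Of the 10 non-clustered protocadherins 3 were higher in cerebellum, 3 higher in liver and 4 not called, shares of 30% each way that lie near the 26.7% and 23.9% of all features. PCDH9, a delta protocadherin of neurons, was at 194, 116 and 106 in cerebellum, against 2.67, 6.44 and 6.38 in liver. Its cerebellum arrays lay well above the liver arrays, which were all under the pseudocount, and the log2 difference was 2.79 ± 0.23 (SE; limma, adjusted p = 2.16e-05). PCDH10 was at 97.6, 102 and 58.3 in cerebellum, against 41.5, 30.4 and 51.1 in liver, a log2 difference of 0.82. PCDH15, the partner of CDH23 in hair cell tip links, was dim in both tissues, at 28.4, 23.6 and 19.8 in cerebellum, against 11.8, 13.8 and 10.0015 in liver, and its difference of 0.50 was not called when any of the 6 arrays was left out. PCDH10 lost its call without cerebellum replicate 1 or 2 or liver replicate 2 (limma, adjusted p from 0.0628 to 0.0722).

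PCDH12, a protocadherin of endothelial cells, was at 23.2, 25.3 and 15.4 in cerebellum, against 80.8, 79.4 and 57.6 in liver. Like CDH5 it did not overlap between the tissues, and the log2 difference was -1.23 ± 0.19 (SE; limma, adjusted p = 0.000840). The endothelial marker sums given with CDH5, which depend on the markers listed, stand beside this gene too. The part of endothelial cells in the PCDH12 difference was not tested. PCDH18 was at 16.2, 21.8 and 11.6 in cerebellum, against 58.4, 27.6 and 77.9 in liver, a log2 difference of -1.04 (limma, adjusted p = 0.0150) that was not called without cerebellum replicate 3 (adjusted p = 0.0613). PCDH20 was at 7.78, 4.28 and 5.19 in cerebellum, against 54.9, 6.74 and 50.7 in liver, and its tissues overlapped, with liver replicate 2 as low as cerebellum. Its difference of -1.11 (limma, adjusted p = 0.0444) passed only narrowly, and it was -1.63 without that array (adjusted p = 0.000480). The call was lost without any of the other 5 arrays (adjusted p from 0.0846 to 0.133). PCDH1, PCDH7, PCDH8 and PCDH17 were not called, with log2 differences of 0.60, 0.19, -0.39 and 0.55.

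The 32 genes outside the cadherin superfamily were nearly uniform, with 28 higher in cerebellum (87.5%), 1 higher in liver (3.12%) and 3 not called. Their median log2 difference was 2.75. Among the 41 cadherins and protocadherins 22 were higher in cerebellum (53.7%) and 6 in liver (14.6%), with a median of 0.82. The difference between the 32 and the 41 genes was not tested. Over all features the shares were 26.7% and 23.9%, which also stand beside the family counts below.

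Both measured neurexins, the presynaptic receptors of the synaptic cleft, were higher in cerebellum. NRXN3 was at 1353, 1345 and 1417 in cerebellum, against 83.6, 42.5 and 30.9 in liver. NRXN2 was at 496, 417 and 456 in cerebellum, against 20.5, 24.2 and 19.6 in liver. The cerebellum arrays agreed closely in both genes and lay far above liver, with log2 differences of 4.40 and 3.63 (limma, adjusted p = 3.46e-06 and 6.71e-07).

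All 3 measured neuroligins, the postsynaptic ligands of neurexins, were higher in cerebellum as well. NLGN1, which is enriched at excitatory synapses, was at 487, 516 and 517 in cerebellum, against 7.40, 9.20 and 13.7 in liver, a log2 difference of 4.29 ± 0.17 (SE; limma, adjusted p = 3.55e-07). NLGN2, which is enriched at inhibitory synapses, was at 173, 155 and 169.6 in cerebellum, against 36.7, 39.2 and 33.99 in liver, a log2 difference of 1.77. NLGN3 was at 153, 194 and 158 in cerebellum, against 46.6, 42.1 and 30.4 in liver, a log2 difference of 1.72. No array of liver reached a cerebellum array in any of the 3. Liver levels of NLGN2 and NLGN3 lay above the pseudocount and those of NLGN1 below it, so the fold of NLGN1 depends more on the constant: at a pseudocount of 30.3 the log2 differences were 3.74, 1.55 and 1.51 for NLGN1, NLGN2 and NLGN3.

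LRRTM proteins are a second class of postsynaptic neurexin ligands. LRRTM3 was at 1799, 1025 and 1819 in cerebellum, against 35.98, 43.9 and 20.04 in liver. All cerebellum arrays were far above liver although replicate 2 was lower than the other two, and the log2 difference of 4.95 (limma, adjusted p = 2.44e-06) was among the largest of the set. LRRTM4 was at 94.98, 89.4 and 96.04 in cerebellum, against 21.4, 3.83 and 26.2 in liver, a log2 difference of 1.77. LRRTM1 was at 35.4, 45.5 and 42.8 in cerebellum, against 60.4, 62.6 and 33.7 in liver, where the ranges overlapped and the difference of -0.23 was not called. In the chimpanzee RefSeq annotation LRRTM3 lies inside CTNNA3 and LRRTM1 inside CTNNA2, which encode alpha-catenins, and whether features of the nested genes share signal was not tested. CTNNA3 was higher in cerebellum by 2.26 and CTNNA2 by 1.19 on the log2 scale.

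Of the 3 LRFN genes, which encode postsynaptic SALM proteins, 2 were called, both higher in cerebellum (66.7%, against 26.7% of all features). LRFN5 was at 488, 175 and 226 in cerebellum, against 60.3, 61.04 and 47.8 in liver, with cerebellum replicate 1 high and a log2 difference of 1.97 (limma, adjusted p = 0.00127). LRFN4 was at 69.5, 72.2 and 82.1 in cerebellum, against 39.5, 52.6 and 39.1 in liver, a smaller difference of 0.60 that was not called without cerebellum replicate 3 (limma, adjusted p = 0.0833). LRFN4 lies inside PC, the pyruvate carboxylase gene, in the chimpanzee annotation, and whether their features share signal was not tested. LRFN3 differed by 0.46 (adjusted p = 0.0679) although its tissues did not overlap.

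SLITRK genes encode postsynaptic proteins that bind receptor tyrosine phosphatases of the presynaptic side. Of 6 measured, 5 were higher in cerebellum (83.3%, against 26.7% of all features). SLITRK1 was at 342, 458 and 229.7 in cerebellum, against 4.46, 12.04 and 6.79 in liver. SLITRK4 was at 370.1, 264 and 398 in cerebellum, against 4.94, 16.5 and 16.7 in liver. SLITRK3 was at 130.3, 172 and 141 in cerebellum, against 5.998, 6.36 and 8.79 in liver. All 3 were under the pseudocount on every liver array and above 100 on every cerebellum array, with log2 differences of 3.84, 3.62 and 2.78 (limma, adjusted p = 5.97e-06, 5.56e-06 and 3.82e-06). SLITRK5 had a clear level in both tissues, at 250.2 ± 45.4 in cerebellum and 124 ± 15.7 in liver, and a log2 difference of 0.92. SLITRK2 was dim and differed by 0.74, a call lost without cerebellum replicate 2 or liver replicate 2 (limma, adjusted p = 0.0605 and 0.0828). SLITRK6 was at 5.75, 203 and 11.7 in cerebellum, against 13.7, 19.01 and 8.37 in liver, which is a signal on a single cerebellum array, replicate 2. Its log2 difference of 0.79 had a standard error of 0.75 (limma, adjusted p = 0.410) and turned to -0.25 without that array.

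**Figure D3:**
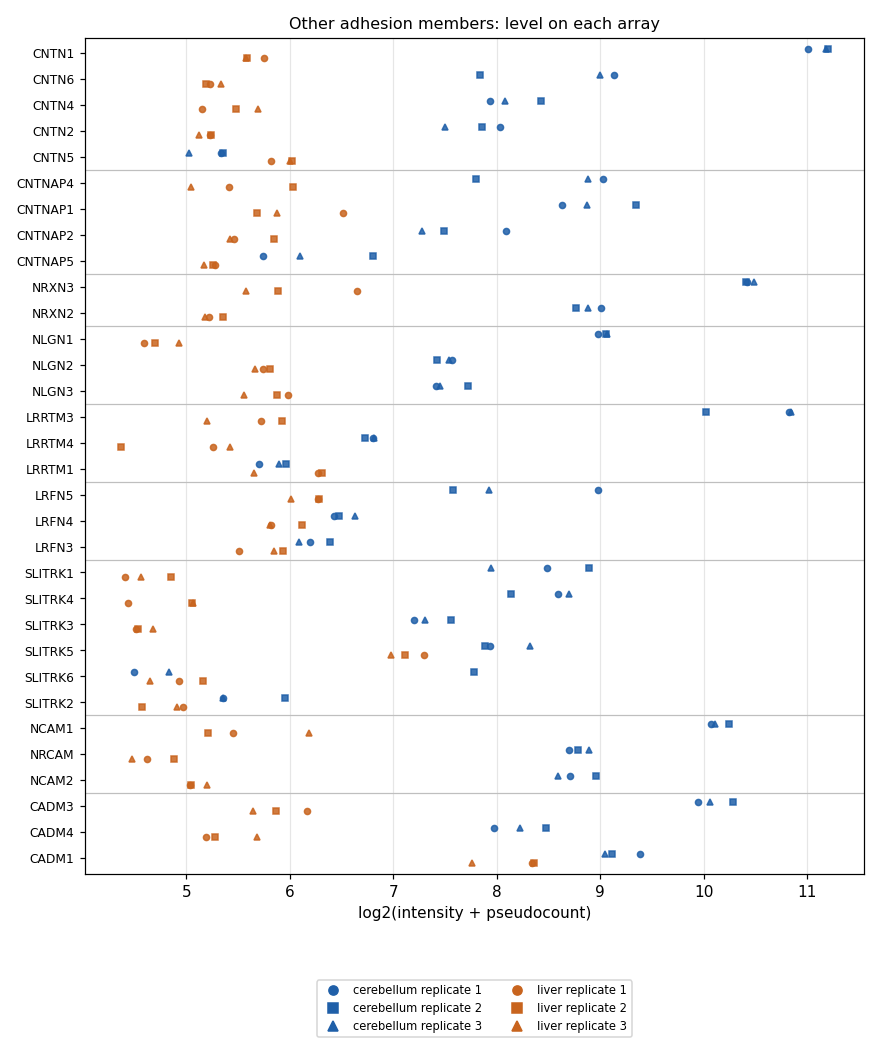
Level of each contactin, contactin-associated protein, neurexin, neuroligin, LRRTM, LRFN, SLITRK, NCAM, NRCAM and CADM gene on each array, as log2 of intensity plus the pseudocount. CNTN5 is the row in which liver points lie right of all cerebellum points, and SLITRK6 has 1 cerebellum point, replicate 2, far from the other two.

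Contactins are immunoglobulin proteins anchored to the membrane of axons by a lipid. Of 5 measured, 4 were higher in cerebellum (80%, against 26.7% of all features). CNTN1, which pairs with CNTNAP1 at the paranodes of myelinated fibres, was at 2045, 2339 and 2310.4 in cerebellum, against 37.04, 31.4 and 30.98 in liver. This was the largest difference toward cerebellum among the 73 genes, 5.49 ± 0.16 on the log2 scale (SE; limma, adjusted p = 1.51e-07). CNTN6, known in mouse from cerebellar granule cells, was at 543, 212 and 494 in cerebellum, against 20.7, 19.7 and 23.6 in liver, a log2 difference of 3.40. CNTN4 was at 227, 328 and 254 in cerebellum, against 18.6, 27.9 and 34.9 in liver, a log2 difference of 2.71. Cerebellum replicate 2 was the lowest for CNTN6 and the highest for CNTN4, and the tissues stayed apart in both. CNTN2, which holds potassium channels beside the paranode together with CNTNAP2, differed by 2.60.

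CNTN5 went the other way, at 23.7, 24.01 and 15.9 in cerebellum, against 39.5, 48.02 and 47.5 in liver. The groups did not overlap and the log2 difference was -0.71 ± 0.17 (SE; limma, adjusted p = 0.00910), at levels that were low on all 6 arrays. The call was lost without cerebellum replicate 3 (adjusted p = 0.0511) and after alignment on general genes (then -0.21; limma adjusted p = 0.406).

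All 4 contactin-associated genes were higher in cerebellum. CNTNAP4 was at 504, 207 and 454 in cerebellum, against 25.7, 48.4 and 16.3 in liver. CNTNAP1, the paranodal partner of CNTN1, was at 379, 636 and 453 in cerebellum, against 74.9, 34.5 and 42.1 in liver. CNTNAP2, the juxtaparanodal partner of CNTN2, was at 255, 163 and 138 in cerebellum, against 27.3, 40.8 and 25.97 in liver. The 3 genes did not overlap between tissues, although their cerebellum arrays did not rank alike (replicate 1 was the highest for CNTNAP4 and CNTNAP2, replicate 2 for CNTNAP1). The log2 differences were 3.08, 2.93 and 2.04 (limma, adjusted p = 0.000164, 4.02e-05 and 0.000180). CNTNAP5 differed by 0.98, with cerebellum arrays at 36.6, 94.9 and 51.7.

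NCAM1, NCAM2 and NRCAM, which guide and bundle axons, were all higher in cerebellum. NCAM1 was at 1055, 1195 and 1086 in cerebellum, against 26.9, 20.3 and 56.01 in liver. NRCAM, which gathers sodium channels at nodes of Ranvier, was at 399, 425 and 458 in cerebellum, against 7.88, 12.8 and 5.51 in liver. NCAM2 was at 401, 482 and 369 in cerebellum, against 16.1, 16.3 and 20.01 in liver. The cerebellum arrays of NCAM1 and NRCAM were within 1.15-fold of each other, and the log2 differences of the 3 genes were 4.52, 4.13 and 3.66 (limma, adjusted p = 2.33e-06, 5.40e-07 and 9.01e-07).

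The 3 CADM genes, whose proteins (SynCAMs) bind each other across the synapse and along myelinated axons, were higher in cerebellum by different amounts. CADM3 was at 969, 1226 and 1053 in cerebellum, against 55.1, 41.6 and 33.2 in liver. CADM4 was at 235, 339 and 283 in cerebellum, against 19.8, 21.96 and 34.5 in liver. CADM1, which epithelia also express, was at 652, 538 and 513 in cerebellum, against 307, 312 and 201 in liver. Liver kept a clear level of CADM1 but not of the other two, and the log2 differences were 4.20, 2.84 and 1.03 (limma, adjusted p = 8.58e-07, 9.72e-06 and 0.00401).

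Members next to each other on a chromosome did not always share a direction or a size of difference. By the order of protein-coding genes in the chimpanzee RefSeq annotation (assembly NHGRI_mPanTro3-v2.0_pri, in which all 73 symbols were found), CDH11 and CDH5 are direct neighbours and had log2 differences of 2.17 and -2.61. CDH3 and CDH1, also direct neighbours, had -0.24 and -4.61, of the same sign, with CDH3 dim in both tissues and not called. CDH12 lies between CDH10 and CDH18, with 3 and 2 other genes in the gaps. It had -0.05, not called, where its neighbours had 3.11 and 4.77. CDH12 was dim in both tissues, with means of 22.9 in cerebellum and 24.3 in liver, so a difference could be hidden. PCDH10 and PCDH18 are parted by 1 gene and had 0.82 and -1.04, and PCDH1 and PCDH12, likewise parted by 1 gene, had 0.60 and -1.23. CNTN6 and CNTN4, direct neighbours, were both called higher in cerebellum, with 3.40 and 2.71.

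The 3 cerebellum arrays differed among themselves for some of these genes. Set against the average of replicates 1 and 3, replicate 2 lay lower by at least 1 on the log2 scale for 2 genes, CNTN6 at -1.23 and CNTNAP4 at -1.15, and higher for 1 gene, SLITRK6 at 3.12. Over all features 1.20% lay that far below and 1.29% that far above. LRRTM3 at -0.81, LRFN5 at -0.87 and CDH24 at -0.77 were also low there, and CNTNAP5 at 0.89 and SLITRK1 at 0.67 were high. Purkinje cell markers (6 measured) summed to 4448, 7296 and 4774 on replicates 1 to 3, markers of astrocytes and Bergmann glia (4 measured) to 4195, 6707 and 5165, and granule cell markers (6 measured) to 10040.4, 10614 and 11364. Markers of fibroblasts, stellate and smooth muscle cells (7 measured) summed to 534, 1255 and 504 on the same arrays, endothelial markers (9 measured) to 301, 490 and 286, and macrophage and microglia markers (7 measured) to 212, 301 and 170. The part of cell composition in these gene values was not tested.

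Replicate 1 of cerebellum had the highest sum of oligodendrocyte markers. Its 5 measured markers summed to 5314, against 1457 and 2014 on replicates 2 and 3. Most of each sum was MBP, at 4297, 966 and 1481 on replicates 1 to 3. MAG, UGT8 and CLDN11 were also highest on replicate 1, while MAL was at 130, 153 and 117. The median log2 shift of the 5 markers against the other 2 arrays was 0.98 on replicate 1. LRFN5 at 1.23, PCDH9 at 0.73, CNTNAP2 at 0.71, CNTN6 at 0.71 and CDH19 at 0.70 lay highest there against the other 2 cerebellum arrays, together with PCDHB13 at 0.73, CDH26 at 0.72 and CNTNAP4 at 0.68. CNTNAP5 at -0.71 and CNTNAP1 at -0.49 lay low. The paranodal gene CNTN1 was at -0.18 and NRXN3 at -0.03, close to the other arrays. Whether the oligodendrocyte share bears on these values was not tested.

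**Figure D4:**
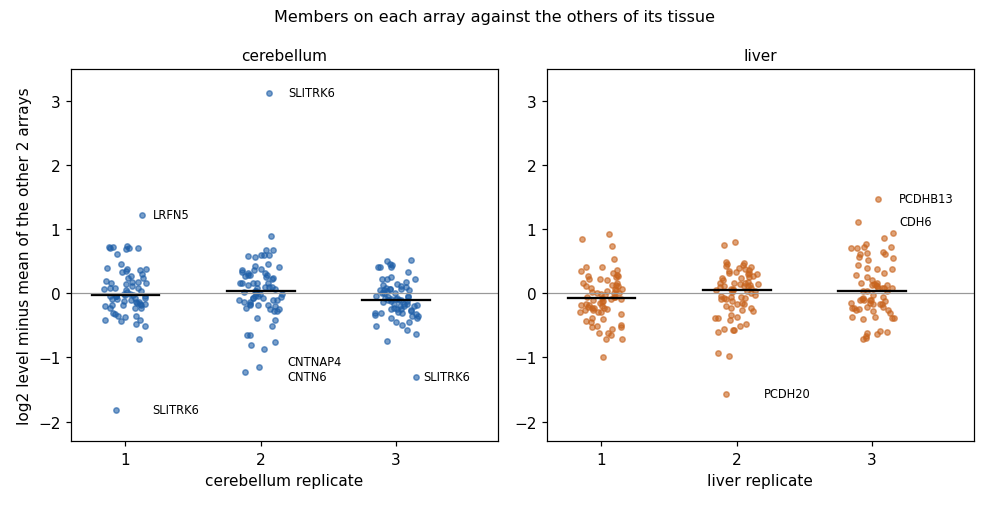
Level of each of the 73 genes on an array minus the mean of the other 2 arrays of the same tissue (log2), with a black line at the median. Medians lie between -0.10 and 0.05, and the labelled genes lie at least 1 from 0. The 3 shifts of a gene within a tissue balance, so that the low SLITRK6 points of replicates 1 and 3 mirror the high point of replicate 2.

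On liver replicate 3, 2 of the 73 genes (2.74%) lay at least 1 above the other livers on the log2 scale and 0 lay that far below, against 3.36% and 2.75% of all features. CDH6, a type II cadherin, was at 42.5, 57.3 and 60.9 in cerebellum, against 46.7, 46.5 and 119.9 in liver, with a shift of 1.11 in liver replicate 3 against the other livers. PCDHB13 was at 193, 117 and 102 in cerebellum, against 16.9, 26.1 and 88.8 in liver, with a shift of 1.48. CDH5 at 0.94, NCAM1 at 0.86, CDH11 at 0.71 and CDH2 at 0.61 were higher there too, while PCDH1 at -0.71, NRXN3 at -0.69 and CNTNAP4 at -0.67 were lower. Of the 10 beta protocadherins 8 were above the other livers in replicate 3, with a median shift of 0.60, where 48.1% of all features lay above. The 7 measured markers of fibroblasts, stellate and smooth muscle cells, of which 6 were higher in liver, summed to 504 to 1255 on the cerebellum arrays, and to 1803, 1519 and 4209 on livers 1 to 3. The 7 macrophage and microglia markers, all higher in liver, summed to 170 to 301 on the cerebellum arrays and to 3377, 3052 and 5870 on the livers. On livers 1 to 3 the 6 bile duct markers summed to 1634, 1401 and 2223, and the 7 lymphocyte and plasma cell markers, of which 6 were higher in liver, to 1226, 1038 and 1456. The endothelial markers summed to 2306, 2550 and 2299 on livers 1 to 3, and the hepatocyte markers to 24602, 23628 and 20744. Neither of these sums was highest on replicate 3. No fibroblast marker was at 0 on any array, and the part of any of these cells in the shifts was not tested. Without liver replicate 3 the log2 difference of CDH5 was -2.29 (limma, adjusted p = 0.000142), that of NCAM1 4.81, that of CDH11 2.40 and that of CDH6, not called, 0.14.

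Genes that work with these molecules were taken from 5 lists with 116 measured genes, of which 57 were higher in cerebellum and 26 higher in liver, with a median log2 difference of 0.58. These are 49.1% and 22.4% of the lists, together 71.6%, against 26.7%, 23.9% and 50.6% of all features. The cytoplasmic partners of cadherins were split evenly, with 6 of 12 higher in cerebellum and 6 higher in liver. That is 50% each way, against 26.7% and 23.9% of all features. CTNND2, delta-catenin of neurons, was at 522, 568 and 432 in cerebellum, against 31.7, 21.8 and 19.6 in liver, and CTNNA3 and PKP4 followed with log2 differences of 2.26 and 1.80. CTNNB1, beta-catenin, was bright in both tissues, at 2109 ± 112 in cerebellum and 815 ± 162 in liver, and higher in cerebellum by 1.37. Toward liver, PKP2, plakophilin of desmosomes and junctions, was at 27.1, 83.8 and 27.3 in cerebellum, against 468, 365 and 536 in liver, JUP, plakoglobin, differed by -2.12, and VCL, vinculin, by -1.50. The alpha-catenins went in opposite directions: CTNNA1, the epithelial form, was at 154, 133 and 110.1 in cerebellum, against 276, 329 and 372 in liver, a log2 difference of -1.20, whereas CTNNA2, the neural form, differed by 1.19 (limma, adjusted p = 0.000963 and 0.0141). No alpha-catenin array overlapped between the tissues.

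Of 24 other genes of the cadherin superfamily 6 were higher in cerebellum (25%), 5 higher in liver (20.8%) and 13 not called, shares near the 26.7% and 23.9% of all features. FAT2, a large cadherin of granule cells, was at 1212, 1568 and 1379.7 in cerebellum, against 8.996, 12.02 and 9.97 in liver, and CLSTN1, calsyntenin of the postsynaptic membrane, and CELSR3, of axon tracts, differed by 3.65 and 1.85. Of the desmosomal cadherins, DSC2, DSG2, DSG1 and DSC3 were higher in liver, with log2 differences of -1.06 for DSG1 and -0.82 for DSC3. DSC1, DSG3 and DSG4 overlapped between the tissues and were not called, with log2 differences of 0.03, 0.12 and -0.41. DSC2 was at 23.2, 34.6 and 19.2 in cerebellum, against 247, 343 and 388 in liver. DSG2 was at 9.33, 21.3 and 13.8 in cerebellum, against 113, 250.1 and 262 in liver. Both parted the tissues completely, with log2 differences of -3.01 and -2.77 (limma, adjusted p = 1.06e-05 and 0.000119), and FAT4 differed by -1.44.

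Of 28 further ligands and receptors of synaptic adhesion, 17 were higher in cerebellum (60.7%) and 5 higher in liver (17.9%). Over all features the shares were 26.7% and 23.9%. CBLN1, the cerebellin that bridges neurexins to the delta glutamate receptor of Purkinje cells in mouse, was at 919.5, 1179 and 963 in cerebellum, against 16.2, 19.9 and 9.78 in liver. It parted the tissues completely, with a log2 difference of 5.02 (limma, adjusted p = 3.41e-07). TENM1, a teneurin, and NTRK3, a receptor that also binds a presynaptic phosphatase, differed by 3.67 and 3.13. Toward liver were PTPRF, IL1RAP and GPC4, with -2.39, -2.25 and -1.80.

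Several of these receptors come as close relatives that differed in opposite directions, as the plot of partner genes shows. Among the LAR-type phosphatases, presynaptic receptors of SLITRK and LRFN proteins, PTPRD and PTPRS were higher in cerebellum by 1.77 and 1.79, while PTPRF was at 45.6, 66.1 and 46.6 in cerebellum, against 392, 399 and 261 in liver. Among the latrophilins, which bind teneurins, ADGRL3 and ADGRL1 were higher in cerebellum by 2.99 and 2.47, while ADGRL2 was at 198, 176 and 154 in cerebellum, against 591, 449 and 499.6 in liver, a log2 difference of -1.46 (limma, adjusted p = 0.000231). IL1RAPL1, another ligand of PTPRD, was higher in cerebellum by 2.52, while IL1RAP, the accessory chain of the interleukin-1 receptor, was at 50.4, 37.8 and 56.3 in cerebellum, against 439, 359 and 153 in liver. The tissues did not overlap in any of these genes.

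**Figure D5:**
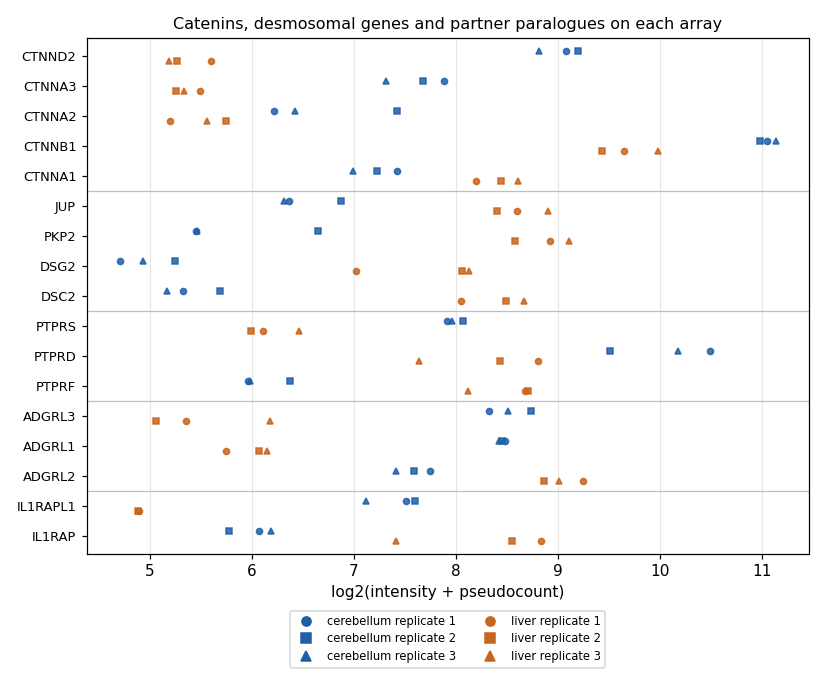
Level of catenins, desmosomal genes, LAR-type phosphatases, latrophilins and interleukin-1 receptor accessory proteins on each array, as log2 of intensity plus the pseudocount, with lines between the groups. In every row the 3 cerebellum points are separate from the 3 liver points. PTPRF, ADGRL2, IL1RAP, CTNNA1 and the 4 desmosomal genes shown (JUP, PKP2, DSG2 and DSC2) lie to the right in liver. The desmosomal cadherins DSC1, DSG3 and DSG4, which were not called, are not shown.

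Scaffolds under the synaptic membrane were mostly higher in cerebellum, with 13 of 19 higher there and 2 higher in liver. DLG2 and DLG4, postsynaptic density proteins that bind neuroligins, differed by 4.27 and 3.23, and EPB41L3, a protein 4.1 that binds CADM and contactin-associated proteins, by 3.23. PARD3, of epithelial polarity, and EPB41L2 were higher in liver, with -1.53 and -1.06. Of 33 other immunoglobulin adhesion genes 15 were higher in cerebellum (45.5%, against 26.7% of all features). Higher in liver were 8 (24.2%, near the 23.9% of all features). CHL1, a close relative of L1CAM, was at 1657, 1458 and 1559 in cerebellum, against 16.3, 20.2 and 15.9 in liver, and NEGR1 and NTM, of the IgLON family, differed by 4.52 and 3.11. CEACAM1, an adhesion protein of the bile canaliculus, was at 9.50, 5.37 and 5.09 in cerebellum, against 420.2, 646 and 459 in liver, and VCAM1 and NECTIN2 differed by -3.40 and -3.34. VCAM1 is also carried by endothelial cells and NECTIN2 by epithelial junctions.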

How the data were processed

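RNA of 3 cerebellum and 3 liver samples was measured on exon arrays. For 15143 features, the authors' deposited table holds an intensity on each array, not in logs. GCOS is named in the submitters' processing notes, while the sources used here do not give the background method or how probes were summarised. The 6 columns hold the same sorted values (0 positions differ) and 93 values per array lie below 0, so the deposited intensities had been quantile normalized; no label or header records these steps.

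Symbols were taken from the annotation of the platform, where 12685 features had 1 symbol, 1780 several and 678 none. Values below 0 were set to 0, and log2(intensity + 16.8) was tested with limma 3.58.1 (lmFit, eBayes, two-sided) in R 4.3.3, without a block or filter, over all features, with Benjamini-Hochberg adjustment. This constant is the 10th percentile of the intensities. Overlap of the tissues was judged on the intensities. The fit was tested on simulated data.

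The members and lists were chosen with earlier results of these data known. Arrays are described for the 3 largest called genes of each family in each direction and the genes called toward liver. CDH2, CDH6, PCDHB7, PCDHB13, LRRTM1 and SLITRK6, and the partner genes CTNNB1, CTNNA1, CTNNA2, PTPRD, PTPRS, the latrophilins and IL1RAPL1, were chosen after their values were seen. Partner genes named otherwise are the 3 largest called of each list in each direction. Alternatives were the replicate block, pseudocounts at the 5th and 20th percentile, a filter on dim features, alignment on 111 general genes, renewed quantile normalization, a test against 2-fold, a trended variance, the dimmer feature of a symbol, and leaving out each array. Groups of 3 are too small for a search for outlying samples. No sequences were used here.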

Additional observations from a re-analysis of the deposited data

How the results depend on the processing

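The counts of 50 genes higher in cerebellum and 7 higher in liver were 46 to 49 and 3 to 6 when 1 array was left out, with 3 toward liver without cerebellum replicate 3. With the 2-fold criterion, leaving out 1 array gave 41 to 44 and 3 to 5. Without dim features 47 of the 73 genes were tested, with 37 higher in cerebellum, 3 higher in liver (2 by 2-fold) and a median log2 difference of 2.08. Of all features that passed this filter 57.7% were called, and 53.1% of the called ones were higher in cerebellum. The pseudocount at the 20th percentile left 2 genes 2-fold higher in liver and a median of 1.26. Alignment on general genes gave 3 genes higher in liver, 2 of them by 2-fold, and a median of 1.99. The test against 2-fold kept 31 and 2 adhesion genes, and 33 and 13 partner genes, since it asks for a larger difference. It called 17.5% of all features, and 49% of those were higher in cerebellum. For the remaining values the cause was not tested. Of the 57 called genes, 47 kept their side of the threshold under every alternative run other than the test against 2-fold (not counting those that the filter left untested). The others were CDH7, CDH22, PCDHB13, PCDH10, PCDH15, PCDH18, PCDH20, CNTN5, LRFN4 and SLITRK2. Renewed quantile normalization could not move these calls, since the arrays already held the same sorted values. The dimmer feature of a symbol could not either, since no 2 of the 73 genes shared a symbol. Differences that changed sign belonged to genes that were not called: under alignment CDH12 (0.45), CDH6 (0.27), CDH3 (0.27), CDH2 (0.21), CDH19 (0.16), PCDHB7 (0.50), PCDH8 (0.11) and LRRTM1 (0.27), and with 1 array left out CDH12 (-0.11 to 0.017), CDH17 (-0.13 to 0.089), PCDHB7 (-0.089 to 0.13), CDH6 (-0.41 to 0.14) and SLITRK6 (-0.25 to 1.39).

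The replicate number as a block gave 49 genes higher in cerebellum and 7 higher in liver, and PCDH15 lost its call (limma, adjusted p = 0.0595). Deviations from the tissue means of same-numbered arrays correlated across features with 0.112, 0.164 and -0.144. Cerebellum replicate 3 correlated best with liver replicate 1 (0.239). With 3 arrays per tissue, whose deviations balance, these values cannot decide whether the numbers are pairs. The labels give same-numbered samples the same sex and age but do not name an animal, so the block was kept as an alternative only.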
